A study of Mus musculus with 22 samples.

Results

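Metalloproteases of the extracellular matrix, their inhibitors and their relatives were followed in the developing mouse molar: 49 genes whose symbols begin with Mmp and a digit, Timp1 to Timp4, or Adamts, out of 28711 features of the normalised table. They comprised 20 matrix metalloproteinases (MMPs), 19 ADAMTS proteases, 5 ADAMTS-like genes, 4 tissue inhibitors of metalloproteinases (TIMPs) and Mmp24os1, a gene on the strand opposite Mmp24. The members were chosen by name and not by their values. Bulk RNA sequencing had been performed on whole first mandibular molars of mice that carried a single copy of the Tgfbr2 G357W allele (Het) and of wild-type littermates (WT). The allele changes a receptor for TGF-beta and models Loeys-Dietz syndrome type II, a disorder of connective tissue. There were 5 P11 Het, 5 P11 WT, 6 P5 Het and 6 P5 WT libraries, where P11 and P5 are postnatal days 11 and 5. The labels name no strain and no other allele or treatment.

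Metalloproteases cut the matrix between cells and are made as inactive precursors. MMPs such as collagenases and gelatinases cut collagens, membrane-type MMPs act at the cell surface and activate other MMPs, and TIMPs block the active enzymes. ADAMTS proteases trim procollagens, cut proteoglycans such as aggrecan and versican, or act on the fibrillin microfibrils that also hold latent TGF-beta. ADAMTS-like proteins share the accessory domains but lack the protease domain. Around an erupting molar, matrix is deposited and bone of the jaw is resorbed, and osteoclasts, the cells that resorb bone, are known for Mmp9.

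The 22 libraries held 32903949 to 45343744 counts each. Markers of secretory ameloblasts (Enam, Amelx and Ambn) summed to 121535 to 167310 CPM at P5, and markers of maturation ameloblasts to 59274 to 83502 CPM at P11, so both enamel-forming stages were represented. CPM is the count scaled to a shared library size, here with TMM factors, which correct for differences in library composition. For P5 Het 6, the title gives P5 and the tissue and treatment fields give P11, and it was kept at P5. Its secretory ameloblast markers summed to 161156 CPM, inside the P5 range above. Its maturation ameloblast markers summed to 1305 CPM, below the P11 range above. Each library name holds a prefix number of unstated meaning, 1 or 2 at P11 and 3, 4 or 5 at P5. The series text counts fewer mice than libraries, so some libraries may share an animal, and p-values measure the spread between libraries. In whole molars, fewer cells of a type and less RNA per cell cannot be told apart. A marker score, the mean log2 CPM of a list, counted as raised if over 1 above the median of the same age. Skeletal muscle or oral keratinocyte markers were raised in 6 libraries: P11 Het 2 and 3, P11 WT 4 and 5, and P5 Het 4 and 5. Oral keratinocyte markers summed to 85 to 863 CPM in P11 Het and 67.5 to 1427 CPM in P11 WT. At P5 they summed to 2.03 to 18.3 CPM in Het and 1.73 to 3.23 CPM in WT. Leaving out the 6 libraries therefore does not remove the difference in these markers between the ages.

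At P11 the most abundant member per length was Mmp13, the main collagenase of rodents, at 263 ± 34.5 CPM per kb of exon in Het and 283 ± 15.8 in WT (SD, n = 5 each). Mmp2, gelatinase A, followed at 110 ± 15.1 CPM per kb in Het and 147 ± 17.3 in WT. Next was Timp2 at 60.7 ± 5.74 CPM per kb in Het and 78.9 ± 9 in WT. At P5 the order was another one: Mmp2 led with 51.1 ± 1.28 CPM per kb in Het and 50.3 ± 6.67 in WT (SD, n = 6 each), next to Adamts10, a protease that binds fibrillin microfibrils, with 48 ± 3.54 in Het and 45.6 ± 3.83 in WT. Those 2 genes did not differ beyond their spread in either genotype. Mmp13 was lower at P5, with 16.4 ± 2.07 CPM per kb in Het and 25 ± 4.67 in WT. At the other end, Mmp1a had at most 9 counts in a library and Mmp24 at most 11, and these 2 members fell below the filter on low counts, which left 47 members for testing.

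The question behind the age comparison is how these genes change between the secretory and the maturation stage of the molar. In Het molars, 23 of the 47 tested members were higher at P11 and 8 were lower at an adjusted p under 0.05 (edgeR quasi-likelihood test, Benjamini-Hochberg adjustment over all 21510 genes tested). Of all genes tested, 24.4% were higher and 23.4% lower. In WT molars, 26 members were higher and 7 lower, against 24.8% and 24.7% of all genes. The median log2 fold change of the members was 0.41 in Het and 0.67 in WT, against -0.01 for all genes in both. The same 23 members were called higher in both genotypes (19.7% of all genes were), 5 were called lower in both (18.2%), and none was called in opposite directions (0.0279%).

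Mmp13 showed the clearest rise. It was measured at 716, 726, 637, 837 and 598 CPM in P11 Het molars, against a lowest, median and highest value of 36.7, 43.4 and 51.4 CPM in P5 Het molars. The P11 WT molars gave 730, 826, 766, 722 and 737 CPM, against 49.7, 67.7 and 79.9 CPM in P5 WT molars. No P11 library came near a P5 library in either genotype. Its log2 fold change, P11 over P5, was 4.00 ± 0.12 (SE) in Het (adjusted p = 2.94e-17) and 3.50 ± 0.12 in WT (adjusted p = 1.58e-16).

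Mmp9, gelatinase B, was lower in level but also separated the ages. It was measured at 88.5, 67.7, 58.5, 96.1 and 59 CPM in P11 Het molars, against 6.35, 14.5 and 21.6 CPM (lowest, median and highest) in P5 Het molars. In P11 WT molars it gave 85.6, 95, 99.7, 77.7 and 72.4 CPM, against 9.51, 13.2 and 19.5 CPM in P5 WT molars. The groups did not overlap, and the log2 fold change was 2.39 ± 0.22 in Het (adjusted p = 2.48e-09) and 2.66 ± 0.22 in WT (adjusted p = 4.11e-10). Osteoclast markers moved with it: 8 of 8 were called higher at P11 in both genotypes, and their summed level was 218 to 324 CPM in P11 Het and 31.3 to 62.4 CPM in P5 Het, and 276 to 367 CPM in P11 WT and 38.4 to 57 CPM in P5 WT. No osteoclast marker was at 0 in all libraries. Bone markers summed to 1144 to 1841 CPM in P11 Het and 591 to 734 CPM in P5 Het, and to 1351 to 2265 CPM in P11 WT and 553 to 681 CPM in P5 WT.

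With osteoclast and bone marker scores as covariates, the log2 fold change of Mmp9 came to 0.23 in Het (adjusted p = 0.747) and 0.22 in WT (adjusted p = 0.811). That of Mmp13 came to 3.20 in Het (adjusted p = 8.23e-08) and 2.64 in WT (adjusted p = 3.69e-06). In that fit 8 members were called higher and 1 lower in Het, against 5.83% and 5.13% of all genes, so that the share called was smaller over all genes too. In WT 10 were called higher and 2 lower, against 4.37% and 3.97% of all genes. The members called in both genotypes were Mmp12, Mmp13, Mmp14, Mmp23, Timp1, Timp3, Adamts1 and Adamts4, which were higher, and Adamts19, which was lower. Mmp2 and Mmp11 (higher) and Adamtsl1 (lower) were called in WT, and the other calls with age ended. The osteoclast score separates the ages by itself, so age and the share of osteoclasts cannot be told apart here.

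Mmp2 rose as well. It was measured at 388, 321, 318, 431 and 404 CPM in P11 Het molars, against 167, 172 and 178 CPM (lowest, median and highest) in P5 Het molars. P11 WT molars gave 425, 498, 470, 503 and 585 CPM, against 136, 172 and 194 CPM in P5 WT molars. The ages did not overlap, with a log2 fold change of 1.11 ± 0.10 in Het (adjusted p = 1.01e-09) and 1.55 ± 0.10 in WT (adjusted p = 2.62e-12). With the osteoclast and bone scores it was 0.66 in Het (adjusted p = 0.0757) and 1.03 in WT (adjusted p = 0.0116). Mmp14, the membrane-type MMP that activates the Mmp2 precursor, differed less: 182 ± 7.3 CPM in P11 Het and 140 ± 24.3 in P5 Het, and 211 ± 20.1 CPM in P11 WT and 155 ± 39.7 in P5 WT (SD, n = 5 at P11 and 6 at P5). Its log2 fold change was 0.37 in Het (adjusted p = 0.0257) and 0.45 in WT (adjusted p = 0.00806), and the ages overlapped in both. Without the 6 libraries in which muscle or oral markers were raised, the change of Mmp14 was 0.35 in Het (adjusted p = 0.162) and 0.36 in WT (adjusted p = 0.108). With the osteoclast and bone scores the Mmp14 change was 1.08 in Het (adjusted p = 0.0421) and 1.21 in WT (adjusted p = 0.0499). Whether it differs from that of Mmp2 in the same fit was not tested.

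**Figure D1:**
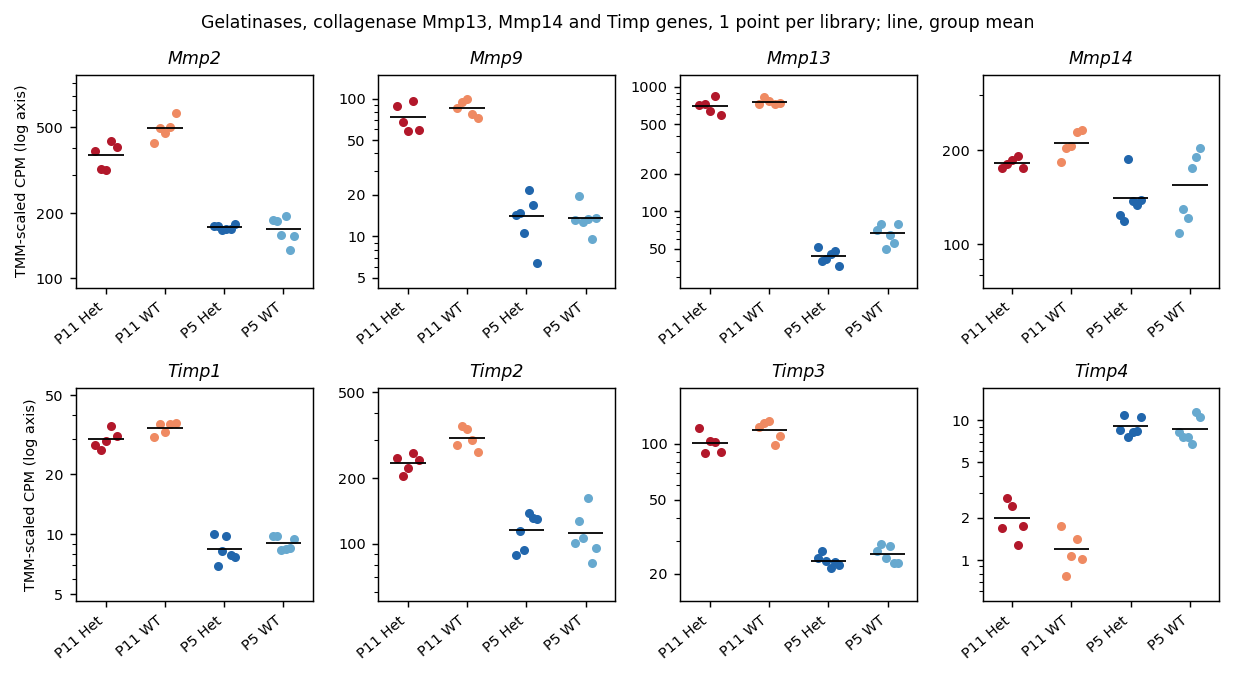
Each panel plots 1 gene, with the TMM-scaled CPM of each library on a log axis, 5 libraries per group at P11 and 6 at P5, and a line at the group mean. Mmp13 lies at 598 to 837 CPM in P11 libraries of both genotypes and at 36.7 to 79.9 CPM in P5 libraries, and Timp4 is the panel in which P11 lies below P5.

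Among the inhibitors, 3 of the 4 TIMP genes rose with age in each genotype and Timp4 fell. Timp1, a soluble inhibitor, was at 30.2 ± 3.31 CPM in P11 Het and 8.42 ± 1.22 in P5 Het, and at 34.3 ± 2.48 CPM in P11 WT and 9.07 ± 0.725 in P5 WT. Its log2 fold change was 1.84 ± 0.09 in Het (adjusted p = 9.12e-14) and 1.92 ± 0.09 in WT (adjusted p = 3.33e-14). Timp3, which binds to the matrix and also inhibits ADAMTS proteases, rose by 2.10 ± 0.09 on the log2 scale in Het and 2.21 ± 0.09 in WT. Exon bases of Timp3 overlap those of Syn3 on the opposite strand over 21.3% of their length, and the libraries carry no strand information. Timp2, which takes part in activating the Mmp2 precursor at Mmp14, rose by 1.03 ± 0.14 in Het and 1.46 ± 0.14 in WT. The call of Timp2 ended with the osteoclast and bone scores, at 0.58 in Het (adjusted p = 0.373) and 0.96 in WT (adjusted p = 0.188).

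Timp4 went the other way. It was measured at 1.7, 2.79, 2.45, 1.28 and 1.74 CPM in P11 Het molars, against 7.65, 8.46 and 11 CPM (lowest, median and highest) in P5 Het molars. P11 WT molars gave 1.75, 0.764, 1.06, 1.42 and 1.02 CPM, against 6.75, 7.92 and 11.4 CPM in P5 WT molars. The ages did not overlap, and its log2 fold change was -2.18 ± 0.21 in Het (adjusted p = 5.26e-09) and -2.85 ± 0.22 in WT (adjusted p = 1.11e-10). With the osteoclast and bone scores it was -1.02 in Het (adjusted p = 0.126) and -1.45 in WT (adjusted p = 0.0627).

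The ADAMTS proteases moved both ways. In Het, 10 of the 19 were called higher at P11 and 4 lower, against 24.4% and 23.4% of all genes. In WT 13 were called higher and 3 lower, against 24.8% and 24.7% of all genes, so the counts of lower genes lie near or under the share of all genes. Adamts1 and Adamts4, which cut proteoglycans, rose by 2.19 ± 0.10 and 1.85 ± 0.15 on the log2 scale in Het, and by 2.38 ± 0.10 and 2.04 ± 0.15 in WT. Adamts1 was at 138 ± 15.6 CPM in P11 Het and 30.3 ± 2.45 in P5 Het, and at 146 ± 11.6 CPM in P11 WT and 27.9 ± 5.12 in P5 WT. Adamts5, another aggrecanase, rose by 1.33 ± 0.13 in Het and 1.32 ± 0.13 in WT. Adamts2, a procollagen N-proteinase that trims fibrillar collagen precursors, rose by 1.03 ± 0.11 in Het and 1.40 ± 0.11 in WT. Adamts18 rose by 1.37 ± 0.19 in Het and 1.92 ± 0.19 in WT, and Adamts17 by 0.41 ± 0.10 in Het and 0.78 ± 0.10 in WT. With the osteoclast and bone scores, Adamts1 and Adamts4 stayed called and these 4 did not. Adamts5 was then at 0.73 in Het (adjusted p = 0.195) and 0.66 in WT (adjusted p = 0.348). Adamts2 was at 0.62 in Het (adjusted p = 0.158) and 0.93 in WT (adjusted p = 0.0576). Adamts18 was at 1.39 in Het (adjusted p = 0.114) and 1.89 in WT (adjusted p = 0.0605), and Adamts17 at 0.25 in Het (adjusted p = 0.634) and 0.60 in WT (adjusted p = 0.291).

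The ADAMTS genes that fell included Adamts10, at 235 ± 19.8 CPM in P11 Het and 396 ± 29.2 in P5 Het, and at 218 ± 14.1 CPM in P11 WT and 376 ± 31.6 in P5 WT. Its log2 fold change was -0.75 ± 0.07 in Het (adjusted p = 9.72e-09) and -0.79 ± 0.07 in WT (adjusted p = 3.93e-09). Adamts6, a close relative of Adamts10, was at -0.90 ± 0.14 in Het and -0.78 ± 0.14 in WT on the log2 scale. Adamts19 was at -1.17 ± 0.15 in Het and -1.36 ± 0.15 in WT, and with the osteoclast and bone scores at -1.81 in Het (adjusted p = 0.00245) and -2.03 in WT (adjusted p = 0.00215). With the scores Adamts10 was no longer called, at -0.51 in Het (adjusted p = 0.107) and -0.52 in WT (adjusted p = 0.16). Neither was Adamts6, at -0.72 in Het (adjusted p = 0.277) and -0.58 in WT (adjusted p = 0.489). Among MMPs, Mmp17, a membrane-anchored MMP, was at -1.12 ± 0.16 in Het and -0.94 ± 0.16 in WT, and with the scores at -1.02 in Het (adjusted p = 0.137) and -0.82 in WT (adjusted p = 0.33). Of the remaining MMPs named by their small p-values, Mmp23 rose by 1.73 ± 0.11 in Het and 2.08 ± 0.11 in WT. Mmp19 rose by 1.55 ± 0.16 in Het and 1.96 ± 0.16 in WT, with 28.3% of its exon bases shared with genes on the opposite strand. Adamtsl5, an ADAMTS-like gene, rose by 0.65 ± 0.09 in Het and 0.79 ± 0.09 in WT. With the scores Mmp23 stayed called, Mmp19 was at 0.98 in Het (adjusted p = 0.165) and 1.32 in WT (adjusted p = 0.0999), and Adamtsl5 at 0.80 in Het (adjusted p = 0.0544) and 0.95 in WT (adjusted p = 0.0506).

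**Figure D2:**
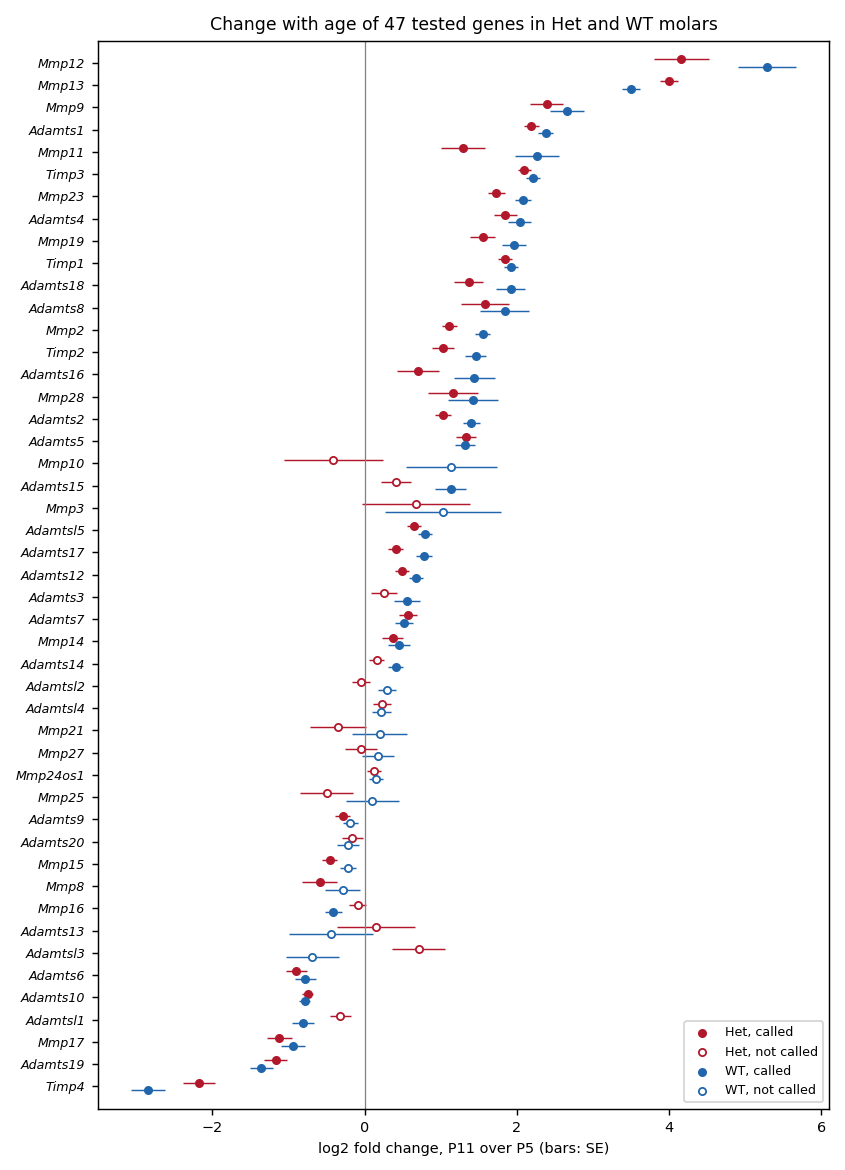
The log2 fold change of P11 over P5 is plotted on the x axis for the 47 tested genes, with Het above WT in each row, SE bars, and filled points for genes called at an adjusted p under 0.05. Mmp12 and Mmp13 lie farthest to the right, at 4.16 and 4.00 in Het and 5.29 and 3.50 in WT, and Timp4 farthest to the left.

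A run of 7 Mmp genes lies on chromosome 9 within 298.9 kb, counted between the starts of Mmp13 and Mmp27. These genes were grouped by position after their values were known. In the order of their starts they are Mmp13, Mmp12, Mmp3, Mmp1a, Mmp10, Mmp8 and Mmp27 (GRCm38, GENCODE M21, Mmp13 at chr9:7272514-7283331 on the plus strand). Promoter sequences from RefSeq (GRCm38.p6) were matched to 33 of the 49 members, and Mmp9, Mmp2 and Adamts16 were not among them. The sequences of 2 neighbours that rose with age and 2 that did not are shown, as the 250 bases upstream of the RefSeq start. All of those shown lie on the plus strand. Capitals mark the AP-1 motif (TGANTCA, a site for Fos and Jun factors, the same on both strands) and the RUNX motif (TGTGGT or its complement ACCACA).
Mmp13 chr9:7272264-7272513: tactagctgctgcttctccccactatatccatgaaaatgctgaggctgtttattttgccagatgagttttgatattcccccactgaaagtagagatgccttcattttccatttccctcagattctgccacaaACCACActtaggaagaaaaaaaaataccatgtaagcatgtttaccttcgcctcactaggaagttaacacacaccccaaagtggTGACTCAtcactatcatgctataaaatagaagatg
Mmp12, first of 2 listed starts, chr9:7344147-7344396: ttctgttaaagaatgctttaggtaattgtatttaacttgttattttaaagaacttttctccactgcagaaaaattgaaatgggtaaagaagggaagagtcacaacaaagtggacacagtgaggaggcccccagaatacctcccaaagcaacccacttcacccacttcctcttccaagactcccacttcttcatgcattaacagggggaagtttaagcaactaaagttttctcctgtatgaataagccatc
Mmp12, second of 2 listed starts, chr9:7347124-7347373: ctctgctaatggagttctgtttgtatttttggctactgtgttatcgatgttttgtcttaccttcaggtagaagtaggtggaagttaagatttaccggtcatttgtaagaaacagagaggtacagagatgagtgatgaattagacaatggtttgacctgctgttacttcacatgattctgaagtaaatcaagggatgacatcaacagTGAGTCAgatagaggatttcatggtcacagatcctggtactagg
Mmp10 chr9:7502092-7502341: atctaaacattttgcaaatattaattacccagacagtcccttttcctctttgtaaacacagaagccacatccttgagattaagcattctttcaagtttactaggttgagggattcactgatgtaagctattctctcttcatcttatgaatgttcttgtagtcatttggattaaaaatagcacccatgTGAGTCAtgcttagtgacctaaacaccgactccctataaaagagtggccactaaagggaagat
Mmp8 chr9:7558179-7558428: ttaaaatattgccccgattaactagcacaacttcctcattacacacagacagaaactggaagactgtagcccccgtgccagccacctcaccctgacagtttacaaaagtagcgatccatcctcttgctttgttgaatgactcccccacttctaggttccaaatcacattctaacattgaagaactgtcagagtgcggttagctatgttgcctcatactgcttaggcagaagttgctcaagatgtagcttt

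The AP-1 motif began 35 bases before the start of Mmp13 and 63 before that of Mmp10. For Mmp12 it was absent from the window of the first listed start, which lies near the annotated gene start, and began 44 bases before the second. It was also present 46 bases before the start of Mmp3 and 73 before that of Mmp1a, and absent from the windows of Mmp8 and Mmp27. The motif was therefore found beside neighbours that rose with age and beside others that were not called. The RUNX motif began 118 bases before the start of Mmp13 and 62 before that of Mmp27, and was in no other window of the cluster. Of 32851 promoter windows of the same length, 6.75% held the AP-1 motif and 14% the RUNX motif. Among the 33 members with a promoter, 4 held each motif (12.1%), taking the first listed start. A match is a description of the letters and not of binding.

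Along the cluster, only Mmp13 and Mmp12, the 2 genes at one end, were called higher at P11 in either genotype. Mmp12, macrophage metalloelastase, was at 18.7 ± 5.09 CPM in P11 Het and 1.04 ± 0.417 in P5 Het, and at 31.1 ± 18.9 CPM in P11 WT and 0.788 ± 0.384 in P5 WT. Its log2 fold change was 4.16 ± 0.36 in Het (adjusted p = 1.21e-09) and 5.29 ± 0.38 in WT (adjusted p = 3.38e-11). The macrophage markers did not rise with it as a list: 1 of 7 was called higher and 3 lower in Het, and 1 higher and 5 lower in WT. Mmp8, neutrophil collagenase, had a log2 fold change of -0.59 in Het (adjusted p = 0.0393) and -0.29 in WT (adjusted p = 0.317). Mmp3, Mmp10 and Mmp27 were not called in either genotype.

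**Figure D3:**
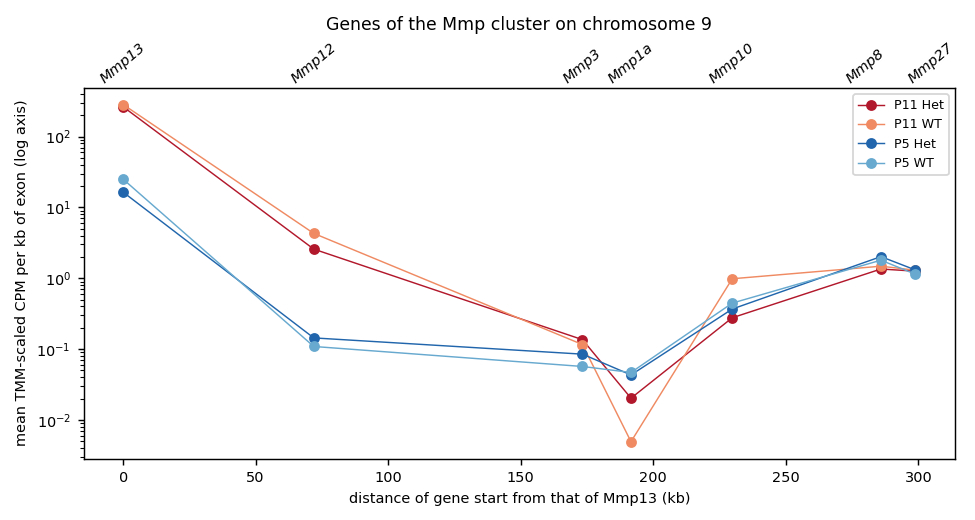
The x axis is the distance in kb of each gene's start from that of Mmp13 and the y axis the group mean in TMM-scaled CPM per kb of exon on a log axis, with 1 line per group. P11 lies above P5 by over an order of magnitude at Mmp13 and Mmp12, and the groups lie close together at Mmp8 and Mmp27.

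Genes that act with the members were taken from lists named by function, and their counts stand against 24.4% of all genes higher and 23.4% lower in Het, and 24.8% and 24.7% in WT. Of 11 tested genes of proteolytic activation (plasminogen, its activators, their inhibitors and proprotein convertases), 8 were called higher and 0 lower at P11 in Het, and 7 higher and 0 lower in WT. Of 14 matrix substrates, 7 were higher and 3 lower in Het, and 6 higher and 3 lower in WT. Of 14 microfibril partners, 7 were higher and 4 lower in each genotype. Of 17 related metalloproteases, 7 were higher and 3 lower in Het, and 8 higher and 4 lower in WT. Of the 9 other inhibitors and modulators, 3 were higher and 4 lower in Het, and 4 higher and 4 lower in WT. Counts such as 3 of 14 or 4 of 14 lower lie near the share of all genes. By genotype, 1 gene of these lists was called (at P5, 0.195% of all genes were lower), Lama3, a laminin chain, with a log2 fold change of -0.32 ± 0.05 (adjusted p = 0.00634), Het over WT at P5.

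The comparison of Het with WT asks what the altered receptor changes at each age. At P11, 1 member was called lower in Het and none higher, against 0.00465% and 0.0232% of all genes, by the edgeR test. The member was Adamts16, a protease of the same subgroup as Adamts18. It was measured at 1.72, 1.05, 1.25, 1.49 and 1.16 CPM in P11 Het molars, against 5.03, 4.56, 4.45, 3.77 and 2.89 CPM in P11 WT molars. Every Het library lay below every WT library. The log2 fold change was -1.63 ± 0.28 (adjusted p = 0.0312), a 3.1-fold lower level in Het.

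The difference in Adamts16 was present within each prefix: 1.05 to 1.72 CPM in Het and 4.45 to 5.03 CPM in WT for prefix 1, and 1.16 to 1.49 CPM in Het and 2.89 to 3.77 CPM in WT for prefix 2. With the prefix as a block the log2 fold change was -1.62 (adjusted p = 0.00377). The size stayed between -1.81 and -1.54 in all alternatives run, and the call did not. Without the 6 libraries with raised markers it was -1.68 (adjusted p = 0.117), and with the osteoclast and bone scores -1.54 (adjusted p = 0.0568). Leaving out P11 Het 2 or 3, or P11 WT 1, 2, 3 or 4, alone also ended the call, with adjusted p between 0.0629 and 0.0847.

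At P5, Adamts16 was at 0.824 ± 0.507 CPM in Het and 1.53 ± 0.341 in WT, with a log2 fold change of -0.89 ± 0.27 (adjusted p = 0.342 in edgeR). P5 Het 1 gave 1.78 CPM and the other 5 Het libraries 0.423 to 0.927 CPM. Over 33 alternatives it ran from -1.27 without P5 Het 1 (adjusted p = 0.0143) to -0.58 without the libraries with raised markers (adjusted p = 0.838), and it was called in 1 of them.

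The 1 member called at P5 was Mmp13, lower in Het, with none higher, against 0.195% and 0.0651% of all genes. Its lowest, median and highest values were 36.7, 43.4 and 51.4 CPM in P5 Het molars, against 49.7, 67.7 and 79.9 CPM in P5 WT molars. The ranges overlapped through P5 Het 1, at 51.4 CPM, and P5 WT 3, at 49.7 CPM. This gave a log2 fold change of -0.60 ± 0.11 (adjusted p = 0.0119), a 1.52-fold lower level. It was -0.65 without the libraries with raised markers (adjusted p = 0.0753). Maturation ameloblast markers also lay lower in P5 Het, with a median log2 fold change of -0.93, Het over WT. Their sums were 818 to 1605 CPM in P5 Het and 1285 to 2468 CPM in P5 WT. Of these 6 markers, only Klk4 was called, as lower. Whether the enamel stage has a part in the Mmp13 difference was not tested. After Mmp13 and Adamts16, the smallest p-values at P5 were those of Adamtsl5, Mmp15 and Adamts15, which were higher in Het and not called. Their log2 fold changes were 0.26 ± 0.09, 0.18 ± 0.10 and 0.32 ± 0.19 (adjusted p = 0.534, 0.843 and 0.878 in edgeR). Over the tested members at P5, 21 of 47 had a log2 fold change below 0 (51.2% of all genes did), and the median was 0.04, against -0.00 for all genes. Groups did not overlap for 0 members in either direction at P5, against 0.344% of all genes with Het higher and 0.507% with Het lower.

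At P11 Mmp13 averaged 703 ± 92.2 CPM in Het and 756 ± 42.2 in WT (SD, n = 5 each), with a log2 fold change of -0.11 ± 0.12 (adjusted p = 0.815). For Mmp13 the interaction, the genotype effect at P11 minus that at P5, was 0.50 ± 0.16 (adjusted p = 0.376). No member passed the interaction test in edgeR, against 0.0139% of all genes higher and 0% lower. DESeq2 and limma-voom also called 0 members. At an unadjusted p under 0.05, 8 members were lower (4.03% of all genes) and 4 higher (6.26%), led by Mmp2 at -0.44 ± 0.14 (adjusted p = 0.354), Mmp13 and Adamtsl3 at 1.40 ± 0.50 (adjusted p = 0.415).

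Many members lay a little lower in P11 Het than in P11 WT. Values of the log2 fold change were below 0 for 37 of the 47 tested members, or 78.7%, against 51.7% of all genes, and the median was -0.18, against -0.01 for all genes. At an unadjusted p under 0.05, 14 members were lower, or 29.8%, against 3.96% of all genes, and 4 were higher, against 5.89%. In either direction these were 18 members (9.85% of all genes), and 9 without the 6 libraries with raised markers (6.49%). Groups did not overlap, with Het higher, for 0 members (0.614% of all genes) and, with Het lower, for 5 members (0.748%): Adamts16, Timp2, Adamtsl2, Adamts2 and Adamts14. These 5 were named for their lack of overlap after their values were seen. Without those 6 libraries the median of the members was -0.10 and that of all genes 0.01, with 3 P11 Het and 3 P11 WT libraries left. Osteoclast markers had a median log2 fold change of -0.27 and bone markers of -0.20, with none of 8 and none of 6 called. With both scores as covariates the median of the members was -0.14. Among the marker lists, secretory ameloblast markers had the largest median, 1.19, with none of 3 called. Their sums were 18177 to 44583 CPM in P11 Het and 17216 to 25957 CPM in P11 WT. Oral keratinocyte markers had a median of -0.62. Whether the enamel stage has a part in the member values was not tested.

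Mmp2, Mmp14 and Timp2 act together at the cell surface. Mmp2 was measured at 388, 321, 318, 431 and 404 CPM in P11 Het molars, against 425, 498, 470, 503 and 585 CPM in P11 WT molars. Only P11 Het 4, at 431 CPM, reached the lowest WT library, P11 WT 1. Its log2 fold change was -0.41 ± 0.10 (adjusted p = 0.138 in edgeR), so it did not pass. DESeq2 called it (adjusted p = 0.0195), as did edgeR with the prefix as a block (-0.42, adjusted p = 0.0282), and without the libraries with raised markers it was -0.19 (adjusted p = 0.834). Timp2 was measured at 249, 205, 224, 261 and 244 CPM in P11 Het molars, against 286, 349, 337, 301 and 264 CPM in P11 WT molars. Every Het library lay below every WT library, with a log2 fold change of -0.38 ± 0.15 (adjusted p = 0.403). Mmp14 had a log2 fold change of -0.22 ± 0.14 (adjusted p = 0.641), from 182 ± 7.3 CPM in Het and 211 ± 20.1 in WT.

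The procollagen N-proteinases Adamts2, Adamts3 and Adamts14 were also below WT in their means. For Adamts3 the groups overlapped, at 17.5 ± 6.24 CPM in P11 Het and 22.3 ± 2.08 in P11 WT. Its log2 fold change was -0.35 ± 0.18 (adjusted p = 0.531). Adamts2 was at 152 ± 10.9 CPM in P11 Het and 183 ± 13.8 in P11 WT, and Adamts14 at 16.2 ± 1.03 CPM in Het and 19.4 ± 1.31 in WT, each with a log2 fold change of -0.26 ± 0.11 (adjusted p = 0.456 and 0.436). Adamtsl2, an ADAMTS-like protein known to bind latent TGF-beta binding protein, was at 11.5 ± 1.06 CPM in Het and 15.2 ± 1.72 in WT, a log2 fold change of -0.41 ± 0.13 (adjusted p = 0.327). Among the 4 members higher at an unadjusted p under 0.05 was Timp4, at 1.99 ± 0.615 CPM in Het and 1.2 ± 0.386 in WT, a log2 fold change of 0.73 ± 0.22 (adjusted p = 0.309). The others were Mmp16, a membrane-type MMP, at 0.31 ± 0.12, and the ADAMTS-like genes Adamtsl1 and Adamtsl3, at 0.32 ± 0.14 and 0.93 ± 0.37. None of these differences passed the adjusted test.

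**Figure D4:**
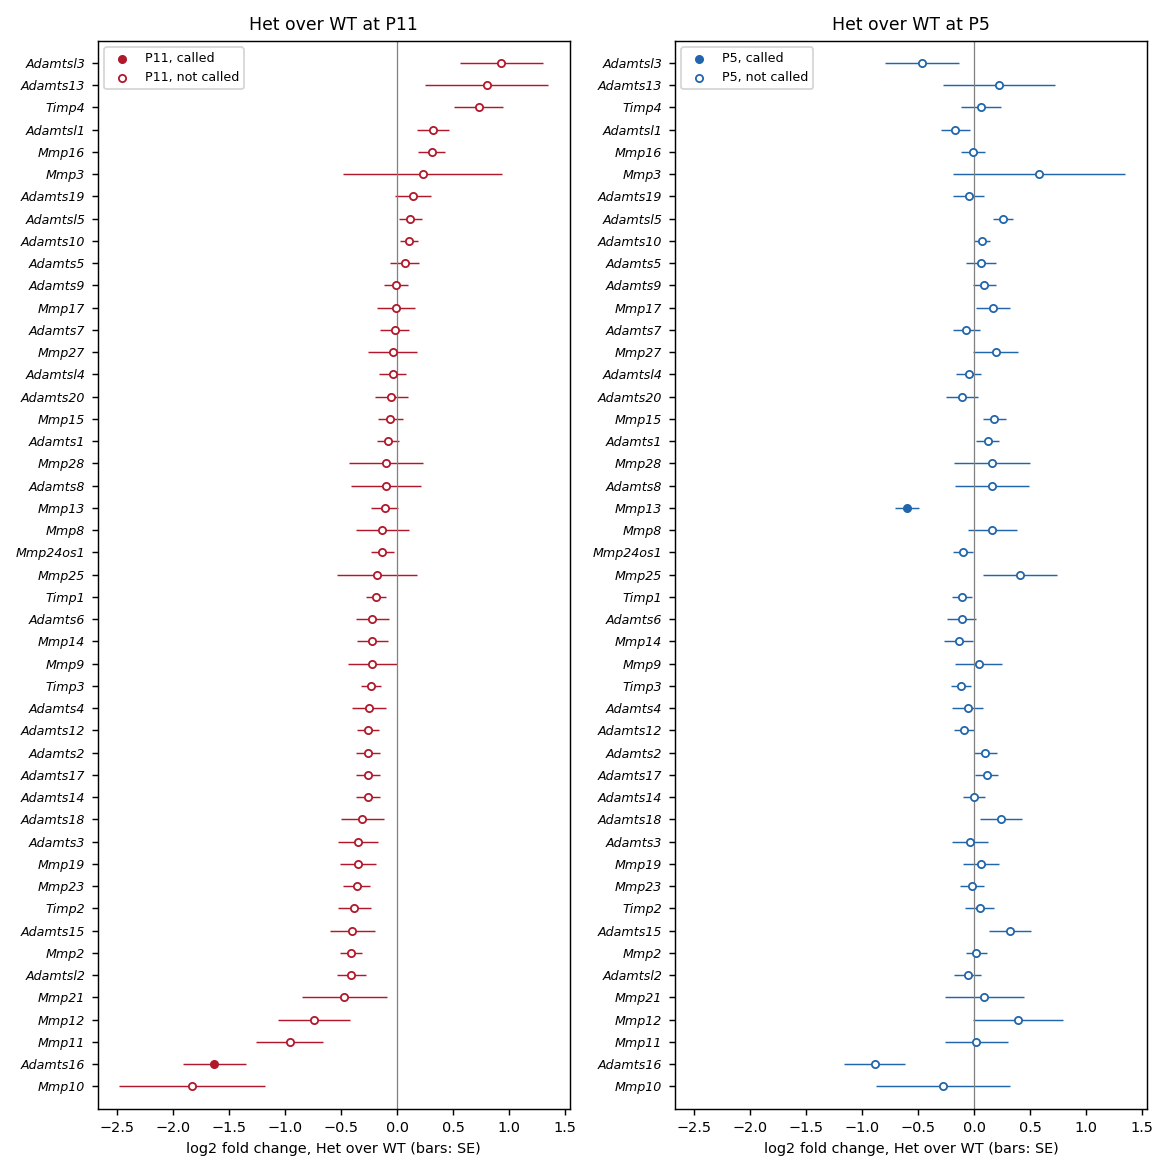
The log2 fold change of Het over WT is plotted on the x axis for the 47 tested genes at P11 (left) and P5 (right), with SE bars and genes in the order of the P11 values. The filled points are Adamts16 at P11, at -1.63, and Mmp13 at P5, at -0.60, and 37 of the 47 points at P11 lie below 0.

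A group of 3 MMP genes was highest at P11 in the 2 WT libraries of prefix 2. Mmp10, a stromelysin, was measured at 0.209, 0.349, 0.144, 0.521 and 1.16 CPM in P11 Het molars, against 0.412, 0.407, 0.295, 3.94 and 3.43 CPM in P11 WT molars. Mmp11, known from mesenchyme around epithelia, gave 17.2, 22.1, 17.6, 27.2 and 33.8 CPM in P11 Het molars, against 22.2, 22.7, 23.1, 83.6 and 78.4 CPM in P11 WT molars. Mmp12 gave 13.8, 13, 20.5, 21.3 and 24.8 CPM in P11 Het molars, against 16.5, 18, 20.2, 40.9 and 59.9 CPM in P11 WT molars. P11 WT 4 and 5, the last 2 values of each WT run, are the libraries of prefix 2. The other 3 WT libraries lay among the Het values. P11 Het 4 and 5, the last 2 values of each Het run, are also of prefix 2. They lay above the Het libraries of prefix 1, for Mmp10 at 0.521 to 1.16 CPM against 0.144 to 0.349 CPM. The Het ranges were 27.2 to 33.8 against 17.2 to 22.1 CPM for Mmp11, and 21.3 to 24.8 against 13 to 20.5 CPM for Mmp12. Mmp8 was also highest at P11 in P11 WT 4 and 5, at 5.14 and 5.13 CPM. It was at 1.87 to 3.04 CPM in the other P11 WT libraries and 2.23 to 4.3 CPM in P11 Het. Mmp3 was highest there too, at 0.408 and 0.457 CPM, with at most 18 counts in a P11 WT library. Neither was called between prefixes.

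Oral keratinocyte markers were raised in the same libraries, and bone and neutrophil markers had their highest sums at P11 there. The 8 expressed markers of that list summed to 1427 CPM in P11 WT 4 and 641 CPM in P11 WT 5, and to 67.5 to 127 CPM in the other P11 WT libraries. P11 Het 2, of prefix 1, had a sum of 863 CPM, with Mmp10 at 0.349 CPM, Mmp11 at 22.1 CPM and Mmp12 at 13 CPM. P11 Het 4 and 5, of prefix 2, had sums of 107 and 222 CPM. Neutrophil markers summed to 45.3 and 43.3 CPM in P11 WT 4 and 5, against 5.32 to 40.8 CPM in P11 Het libraries and 7.24 to 11.1 CPM in the other P11 WT libraries. Bone markers summed to 2265 CPM in P11 WT 4 and 2028 CPM in P11 WT 5, against 1144 to 1841 CPM in P11 Het libraries and 1351 to 1635 CPM in the other P11 WT libraries. The part of these tissues in the levels was not tested. For prefix 2 against prefix 1, 5 members were called higher (2.26% of all genes) and 2 lower (3.37%), with Mmp10 at 2.65 ± 0.38 (adjusted p = 0.000284), Mmp11 at 1.29 ± 0.15 (adjusted p = 5.61e-05) and Mmp12 at 1.02 ± 0.25 (adjusted p = 0.0176) on the log2 scale. The other 2 higher members were Adamts4 and Adamts7, and the 2 lower ones Adamts9 and Adamts5. The median of the members was 0.04, against -0.01 for all genes. Without the 6 libraries with raised markers, among them both P11 WT libraries of prefix 2, no member was called (0.0548% of all genes higher and 0.192% lower), and the log2 fold change was 1.99 for Mmp10 (adjusted p = 0.401), 0.83 for Mmp11 (adjusted p = 0.0592) and 0.74 for Mmp12 (adjusted p = 0.591).

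The genotype difference of Mmp11 at P11 rests on P11 WT 4 and 5. It was -0.96 ± 0.30 on the log2 scale (adjusted p = 0.322), 0.06 without the P11 WT libraries of prefix 2, and 0.20 without the libraries with raised markers. With the prefix as a block, Mmp11 was called lower in Het, at -0.72 (adjusted p = 0.0375). Its change with age in WT was 2.27 ± 0.29 with all libraries (adjusted p = 7.32e-07) and 1.25 without the P11 WT libraries of prefix 2 (adjusted p = 4.58e-07). That of Mmp12 in WT was 4.52 without them (adjusted p = 4.09e-11).

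**Figure D5:**
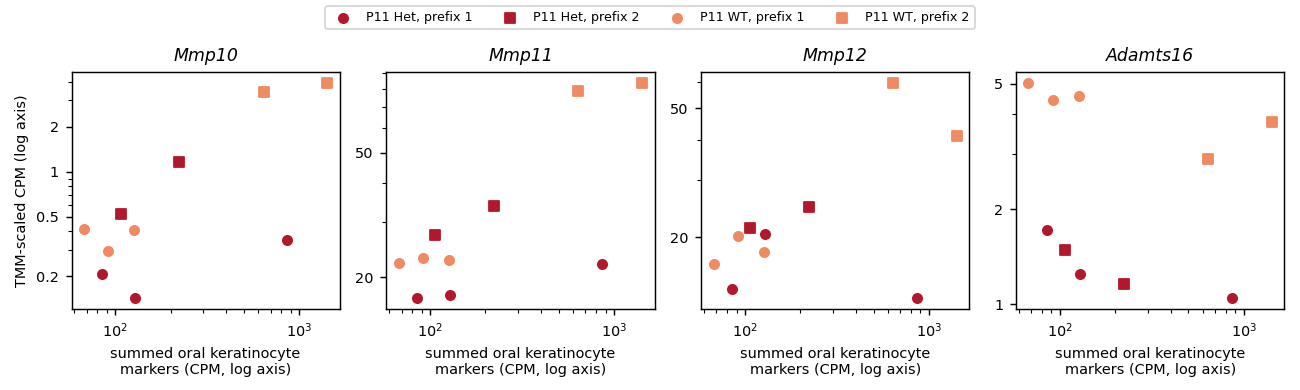
Each panel plots the TMM-scaled CPM of 1 gene in the 10 P11 libraries against the summed CPM of oral keratinocyte markers, both on log axes, with colour for genotype (Het listed before WT) and shape for prefix. The 2 WT squares stand highest for Mmp10, Mmp11 and Mmp12, at sums of 641 and 1427 CPM, and for Adamts16 all 5 Het points lie below all 5 WT points.

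Adamtsl3 varied widely among libraries of a group. Its values were 44.8, 84.2, 130, 50.4 and 67 CPM in P11 Het molars, against 56.4, 32.8, 43.5, 32.4 and 32.6 CPM in P11 WT molars. At P5 the lowest, median and highest values were 23.7, 34.7 and 82.1 CPM in Het molars, against 23.1, 67.4 and 97.2 CPM in WT molars. The groups overlapped at both ages, with a log2 fold change of 0.93 ± 0.37 at P11 (adjusted p = 0.41) and -0.47 ± 0.33 at P5 (adjusted p = 0.916).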

How the data were processed

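Per the labels' protocols, total RNA of first mandibular molars was made into unstranded Nextera XT libraries and sequenced as paired-end reads. The submitters' processing notes name the build GRCm38 and the tools STAR 2.7.3a, limma, edgeR and DESeq2, and the read counter is not given in the sources used here. Per gene, the authors deposited whole-number counts for 55439 features, and a filtered table with the same values. 18 features that are not mouse genes, 0.000109% to 0.000457% of each library, were left out. The deposited normalised signal values are those counts relative to TMM-adjusted library sizes, and served for gene symbols and the choice of members. The CPM values given here were computed anew from the counts, with the library sizes and TMM factors of the edgeR fit.

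Tests used the counts: edgeR 4.0.16 quasi-likelihood tests in R 4.3.3, two-sided, with TMM, filterByExpr (minimum count 10, minimum total 15), 4 age-by-genotype groups and 22 libraries, leaving 18 residual degrees of freedom and a common dispersion of 0.0381. Called means a Benjamini-Hochberg adjusted p under 0.05. An SE is the log2 fold change over the square root of F. DESeq2 1.42.0 and limma 3.58.1 were alternatives. Scripts were tested on simulated data. Reads have no molecular identifiers, so counting precision is not that of molecules. No replicate pair was a library deposited again (chi-square per degree of freedom 6.4 to 88.5). Replicate numbers of the groups do not pair samples.

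Members and lists were chosen with earlier results of these data known. Members named are those called by genotype or, up to 20 per comparison, by age, the 5 with the smallest p by genotype, the 3 in the interaction, the 10 highest per kb, Timp1 to Timp4, Mmp2, Mmp9, Mmp13 and Mmp14. Mmp1b and Mmp7, outside the normalised table, had at most 5 and 3 counts. One gene of the name family is not reported here.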

Additional observations from a re-analysis of the deposited data

Results flagged for a closer look

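In 128 groups of 5 or 6 libraries of 32 named members, 3 held a library far from the others by Dixon's test at the 95% level, which chance alone marks in about 1 in 20 groups. All 3 were in P5 Het. Adamts16 was at 1.78 CPM in P5 Het 1, and the next highest P5 Het library was at 0.927 CPM. Adamts2 was at 65.4 CPM in P5 Het 1, and the next lowest was at 74.6 CPM. Mmp14 was at 187 CPM in P5 Het 3, and the next highest was at 139 CPM. In P5 WT, Mmp14 ran from 109 to 203 CPM.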

How the results depend on the processing

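Of 68 results on named genes under up to 33 alternatives, 1998 values kept their direction and side of the threshold, 68 lost the call, 4 gained it and 3 reversed. The reversed ones were Mmp11 at P11 by genotype, 0.20 without the 6 libraries whose muscle or oral markers were raised and 0.06 without the P11 WT libraries of prefix 2 (an alternative chosen after seeing the data), and Mmp9 at P11 by genotype, 0.01 with osteoclast and bone scores. Without the libraries with raised markers, 0 members were called at P5 and 0 at P11. Between prefixes, that fit rests on P11 Het 4 and 5 against P11 Het 1 alone. At P11, 2 members were called lower with DESeq2, 3 with the prefix block and 0 with osteoclast and bone scores. With those scores the age counts were 8 higher and 1 lower in Het and 10 and 2 in WT. Between prefixes, 8 were higher with no filter, and 1 was lower with RLE factors or with muscle and oral scores. Over all genes at P11, DESeq2 called 70 higher and 37 lower and the prefix block 47 and 38, against 5 and 1. The cause of these changes was not tested. Leaving out 1 library at a time gave 1 to 2 members lower at P5 (2 without P5 Het 1), 0 to 1 lower at P11, 21 to 24 higher and 6 to 9 lower with age in Het, 26 to 27 and 7 to 9 in WT, and 2 to 6 higher (2 without P11 WT 5) and 1 to 3 lower between prefixes.

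Same-numbered libraries deviated with correlations of -0.195 to 0.189, so replicate numbers do not pair them. With the replicate number as a block, 1 member was lower at P5 and 1 at P11, and 24 and 8 moved with age in Het and 27 and 8 in WT. The prefix comparison was not run with DESeq2, limma-voom or the replicate block. Low counts limit Mmp3, Mmp10 and Adamts16 among the members named with test values, and some other tested members held as few counts.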
